A study of Arabidopsis thaliana with 4 samples.

Results

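The locus described here is a stretch of 9.5 kb on chromosome 1 that holds the dehydrin gene *COR47* (*AT1G20440*) and its neighbours. It was chosen by its fold enrichment, which is among the highest in the data, so that enrichment, pileup and rank at the locus are a description and were not tested. The data came from 3 ChIP samples (replicates 1, 2 and 3) and 1 input library of 13-day-old *Arabidopsis* seedlings in the Col-0 background. All of them expressed MYC-tagged AtbZIP17 from the 35S promoter, which is active in most tissues at a level not set by the *AtbZIP17* gene itself, and all had been grown at 22 °C before a heat treatment of 2 h at 42 °C. Chromatin of the ChIP samples was precipitated with an anti-MYC antibody, and the input had no antibody. No unheated or untagged ChIP sample was analysed here, so nothing below compares heat with no heat. Nothing in the labels says that the replicates came from separate cultures, and the SD between them may be technical. Of the 13344 peaks in the 3 lists, 5 overlap the stretch at least in part, and replicate 1 accounts for 1 of them and replicates 2 and 3 for 2 each. The weaker peak of replicate 3 begins to the left of the stretch. Of the 842 genes in the lines of the study's table of targets that were used here, 3 belong to the locus, namely *AT1G20430*, *AT1G20440* and *AT1G20460*. These are 1389 lines of that table, and 1240 more lines were left out here, so that further lines for the locus may be among the latter.

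Dehydrins are very hydrophilic, largely unstructured proteins of the late embryogenesis abundant class. They accumulate in plant cells that lose water through drought, cold or salt, and they bind membranes and keep other proteins from aggregating. *COR47* and its neighbour *ERD10* (*AT1G20450*) encode related acidic dehydrins that are well known for their induction by cold and dehydration. AtbZIP17 is a transcription factor held in the membrane of the endoplasmic reticulum. Under stress it is carried to the Golgi and cut by proteases, and the freed part enters the nucleus and binds DNA.

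In each replicate the locus was dominated by 1 very wide peak. In replicate 1 it ran from 7084712 to 7091573 (6862 bp), in replicate 2 from 7084410 to 7091597 (7188 bp) and in replicate 3 from 7085298 to 7091902 (6605 bp). The mean width was 6885 ± 292 bp (SD, n = 3), and each peak was 16.5, 16.3 and 15.0 times as wide as the median peak of its list. A stretch of 6276 bp, from 7085298 to 7091573, was covered in all 3 replicates, which is 83.8% of the 7493 bp covered in any of them. The left edges were spread over 888 bp and the right edges over 329 bp. The position of highest pileup, the summit, was far more constant. Replicate 1 had it at 7090160, replicate 2 at 7090170 and replicate 3 at 7090137, which is a spread of 33 bp. Over all 1341 regions with a peak of every replicate, the median spread of the summits was 95 bp, and 16.3% of the regions had a spread of 33 bp or less. Over the 50 regions with the highest mean fold enrichment, the median was 32.5 bp, so that the summits at the locus were about as close as is usual for strong peaks. The lists give only 1 summit per peak, and smaller maxima inside the wide peak cannot be seen in them.

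**Figure D1:**
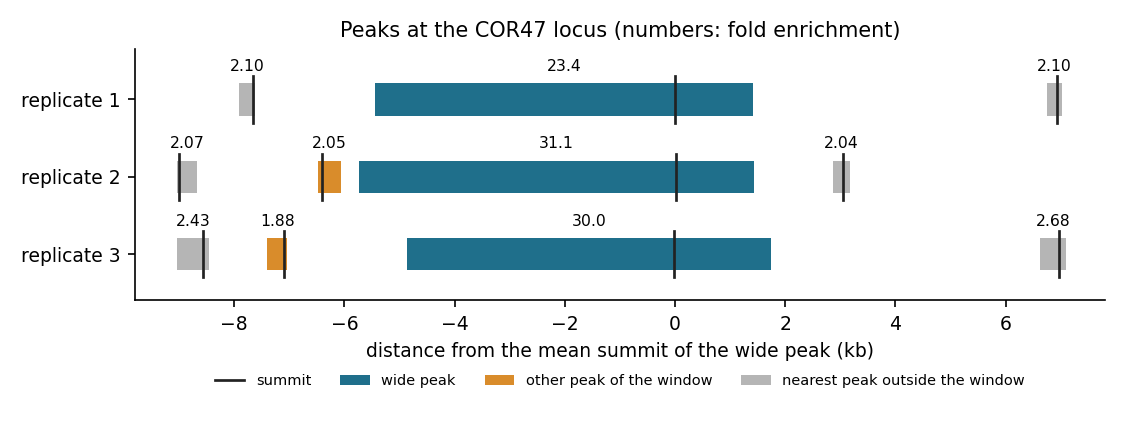
Peaks at the *COR47* locus in the 3 replicates, drawn to scale against the distance (kb) from the mean summit of the wide peak. Bars span each peak, dark ticks mark summits and the numbers are fold enrichments. The wide peaks share their summits within 33 bp, while the 2 weak peaks of the stretch, both on the left, overlap no peak of another replicate.

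The fold enrichment, which is the pileup over the background that MACS estimated from the input, reached 23.4 in replicate 1, 31.1 in replicate 2 and 30.0 for replicate 3. Replicates 2 and 3 were close together and replicate 1 was lower. The pileup was 418, 522 and 493 fragments, with a mean of 478 ± 53.7 fragments (SD, n = 3), and was lowest in the same replicate. The ranks by fold enrichment hardly differed, being 6 of 4523 peaks, 5 of 4491 and 6 of 4330. At the locus, replicate 1 reached 0.765 times the mean of replicates 2 and 3. It was also lower in 48 of the 50 strongest common regions, with a median ratio of 0.818 and a range from 0.697 to 1.02, so the lower value in replicate 1 was shared by most strong regions. The −log10 *q* value was 406, 571 and 532. Dividing pileup by fold enrichment gave an approximate implied background of 17.9, 16.8 and 16.4 fragments. The median of this quotient over all peaks of the same lists was 16.0, 15.8 and 15.4 fragments. The background that MACS itself used is not in the lists and can differ from this quotient. The pileup at the locus was 11.9, 14.9 and 14.5 times the median pileup of each list. Its implied background was above the median too, and 81.1%, 70.7% and 72.0% of the peaks of each list had an equal or lower one.

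**Figure D2:**
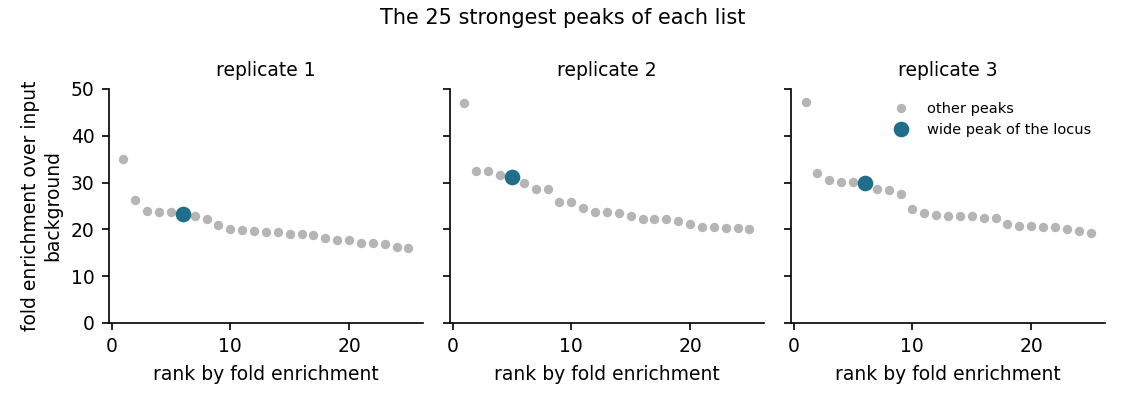
Fold enrichment of the 25 strongest peaks of each list against their rank, 1 panel per replicate. The wide peak of the locus ranks 6, 5 and 6, and neighbouring ranks differ little in fold enrichment.

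Among the 1341 common regions, the locus ranked 5 by mean fold enrichment, with 28.2 ± 4.18 (SD, n = 3), and 6 by mean width. The regions next to it were close in mean fold enrichment, and in all 7 replicate 1 was the lowest. Just above it were a region on chromosome 5 from 437019 to 444975 with 28.8 ± 2.11 (SD, n = 3), the region listed for *AT5G13100* and *G6PD2* with 28.9 ± 4.39 (SD, n = 3), and a region on chromosome 5 from 2313126 to 2321879 with 29.4 ± 4.91 (SD, n = 3). *G6PD2* encodes a glucose-6-phosphate dehydrogenase, an enzyme that supplies NADPH. Just below were the regions listed for *MYB11*, with 28.1 ± 5.19, and for *APC1*, with 27.0 ± 2.91, and a region on chromosome 5 from 6166471 to 6172852 with 26.6 ± 3.28 (SD, n = 3 each). *MYB11* encodes a regulator of flavonol synthesis. Compared within replicates, the region that starts at 2313126 and that of *G6PD2* were above the locus in 3 of 3, and the region that starts at 6166471 was above it in 0 of 3. The order against the locus changed between replicates for the others, since the region that starts at 437019 and that of *MYB11* were above it in 2 of 3 and that of *APC1* in 1 of 3.

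**Figure D3:**
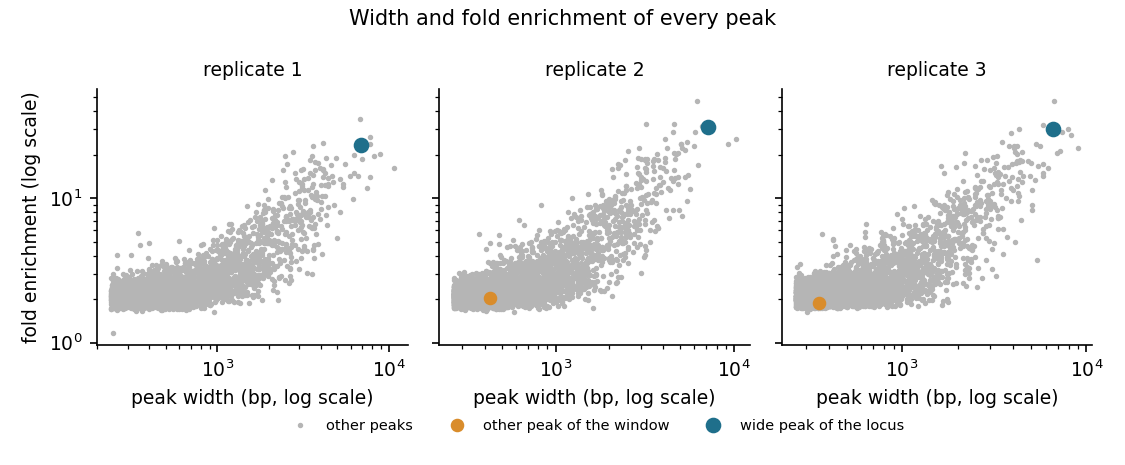
Width (bp, log scale) and fold enrichment (log scale) of every peak, 1 panel per replicate. The wide peak of the locus lies at the upper right end of each list with widths from 6605 to 7188 bp, while the other peaks of the stretch, with 2.05 and 1.88, lie at the lower left.

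The wide peak was lopsided. From its left edge to the summit it measured 5448, 5760 and 4839 bp in replicates 1, 2 and 3, and from the summit to its right edge 1413, 1427 and 1765 bp. The left arm was thus 3.86, 4.04 and 2.74 times as long as the right arm, and the summit lay at 77.6 ± 3.77% of the width (SD, n = 3). The place of the summit was not used to choose the locus, but the comparison with other wide regions was added after the data were seen. A peak of at least 5000 bp in all 3 lists, a limit set after the widths were seen, was found in 11 of the 1341 common regions. In these 11 regions the summit lay between 3.44 and 27.6 percentage points from the centre of the peak, with a median of 8.59, and the locus had the highest value. Taken by replicate, it ranked 1, 2 and 1 among the 11. It also ranked 1 of 60 regions when the limit on width was 3000 bp and 1 of 8 when it was 6000 bp. A region on chromosome 1 from 21085248 to 21095196, listed for *AT1G56320*, came close to it with 26.2 percentage points, and its left arm was 3.24 times as long as its right arm, against 3.48 at the locus for the mean arms. No test was made of this order.

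**Figure D4:**
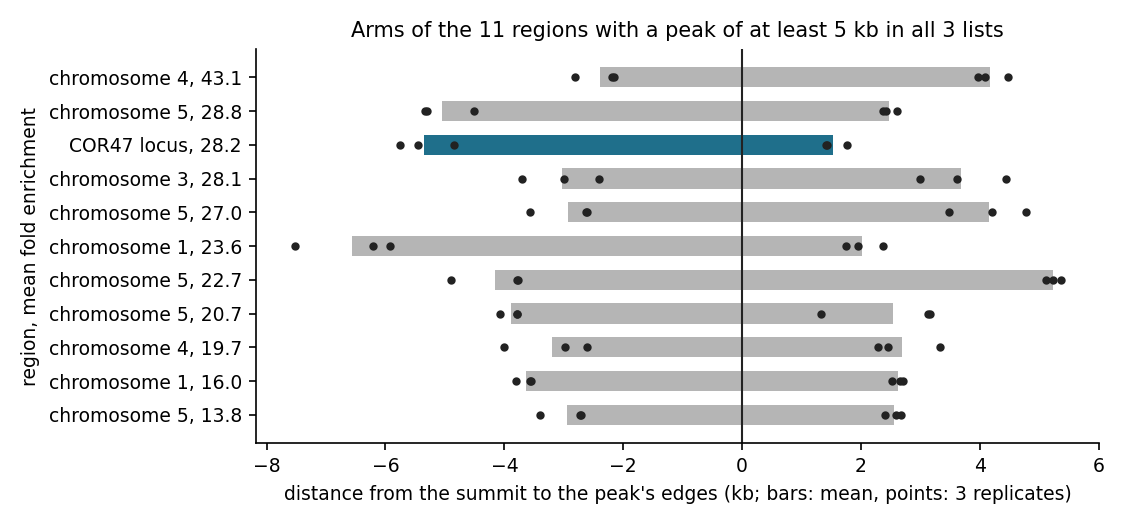
Distance (kb) from the summit to the left and right edges of the peak in the 11 regions with a peak of at least 5 kb in every list, ordered by mean fold enrichment. Bars are means and points the 3 replicates. At the *COR47* locus the left arm averages 5349 bp and the right arm 1535 bp, the most unequal arms among the 11.

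The long left arm ran over the dehydrin genes. RefSeq's annotation of TAIR10.1 gave the names and the order of the genes, while the processing notes of the submitters name TAIR10 for the peaks, and no gene coordinate is given here. To check that both could be laid side by side, all listed pairs of a gene and a peak were compared. The peak lay on the chromosome of its gene in all 2852 pairs whose gene was found, and over the gene or within 2000 bp of it in 2846 of them. From left to right, the protein-coding genes are *AT1G20430*, *COR47*, *ERD10* and *AT1G20460*. In all 3 replicates the wide peak covered the whole of *ERD10*, reached into *COR47* from the right and into *AT1G20460* from the left, and did not touch *AT1G20430*. The 3 summits lay in the gap between *ERD10* and *AT1G20460*. *COR47* was therefore separated from the summit by *ERD10*, and *AT1G20430* by both dehydrin genes.

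The lines used here name the wide peak for *AT1G20430*, *AT1G20440* and *AT1G20460* in each replicate, and these 3 genes thus share the same values. A summit over the gene or within 2000 bp of it was found at *AT1G20460* in all 3 replicates, and at neither *COR47* nor *AT1G20430* in any. Over all listed pairs of a gene and a peak, 93.8% had the summit over the gene or within that distance. The study's own rule for a target differs, since it asked for a common peak region in the 2 kb upstream and did not name the summit. *ERD10*, which borders on the summit, also had it within 2000 bp in all 3 replicates and does not occur among the lines used here, but a line for it could be among those left out. Of the 4 genes of the locus, the summit was thus near 2, and of the 3 genes in the lines used it was near 1. Strand was not given in the table, so which side of each gene is upstream was not determined. Of the 1389 lines used, 4 belong to the locus. In 3 of them all peaks are the wide peak, and in the remaining line, for *AT1G20430*, the peak of replicate 2 is a weak peak with a fold enrichment of 2.05 that does not overlap the others. The number of genes per peak was counted in these lines alone, so it can be too low. Among the 2432 listed peaks, 81.7% were listed for 1 gene, 16.7% for 2 genes and 1.64% for 3 or more. By the same lines, 12 common regions had strongest peaks that shared 3 or more genes, and their mean widths ranged from 298 to 6885 bp. The locus was the widest and had the highest mean fold enrichment of the 12, followed by the region listed for *AT2G36290*, *AT2G36300* and *FACE2* with 21.9 ± 2.58 (SD, n = 3) and 5181 bp. Most of the 12 were far narrower than the locus. The locus was chosen by its fold enrichment, with its width and shared genes known, so its place among the 12 is a description.

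The other 2 peaks of the stretch were weak and were not shared. In replicate 2 a peak of 430 bp ran from 7083667 to 7084096 and had its summit at 7083746. Its fold enrichment was 2.05 and its pileup 30 fragments. It ended 313 bp before the wide peak of the same list. In replicate 3 a peak of 356 bp ran from 7082757 to 7083112 and had its summit at 7083054. Its fold enrichment was 1.88 and its pileup again 30 fragments, and a gap of 2185 bp separated it from the wide peak. Both summits fell inside *AT1G20430*. Neither peak overlapped a peak of another replicate. The wide peak exceeded them by 15.2 and 15.9 times in fold enrichment. With −log10 *q* values of 2.24 and 1.73, neither passed a *q* value limit of 1e-05. They ranked 3312 of 4491 and 4037 of 4330 by fold enrichment. The nearest peaks just outside the stretch were also weak. The closest on the left, from 7082242 to 7082538 in replicate 1, had a fold enrichment of 2.10, and the closest on the right, from 7093025 to 7093329 in replicate 2, had 2.04. Over both sides and all 3 replicates, the nearest outside peaks had fold enrichments from 2.04 to 2.68. Of these 6 peaks, 4 overlapped a peak of another replicate, namely the left peaks of replicates 2 and 3 and the right peaks of replicates 1 and 3. The right peak of replicate 3, with 2.68, had a −log10 *q* value of 6.02 and was the 1 peak of the 6 that passed the limit of 1e-05. The medians of the 3 lists, 2.20, 2.22 and 2.24, lay inside the range of these weak peaks.

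The other dehydrin genes were examined for peaks over the gene or within 2000 bp of it on either side. Of the 10 dehydrin genes of *Arabidopsis*, 4 had a peak in all 3 replicates, and the other 6 (*HIRD11*, *LEA*, *LTI30*, *XERO1*, *AT4G39130* and *RAB18*) had a peak in none. Since *COR47* and *ERD10* share the wide peak, these 4 genes correspond to 3 regions. Of 27444 protein-coding genes, 10.6% had a peak of each list by the same rule. Without the 2 genes of the locus, 2 of 8 dehydrin genes had peaks in all replicates. With so few genes this share was not read as different from that of all genes. *ERD14* (*AT1G76180*) encodes an acidic dehydrin like *ERD10* and had fold enrichments of 5.13, 5.34 and 4.87, a mean of 5.11 ± 0.235 (SD, n = 3). Its summits lay at 28588593, 28588667 and 28588635 on chromosome 1. *AT4G38410* had 3.18, 4.42 and 3.96, a mean of 3.85 ± 0.624 (SD, n = 3), and its summits on chromosome 4 were spread over 232 bp. The mean fold enrichment at the *COR47* locus was 5.51 times that at *ERD14* and 7.31 times that at *AT4G38410*, and its lowest replicate was above the highest replicate of either. Since the locus was chosen by its fold enrichment, such a gap to other genes was built into the choice and was not tested.

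**Figure D5:**
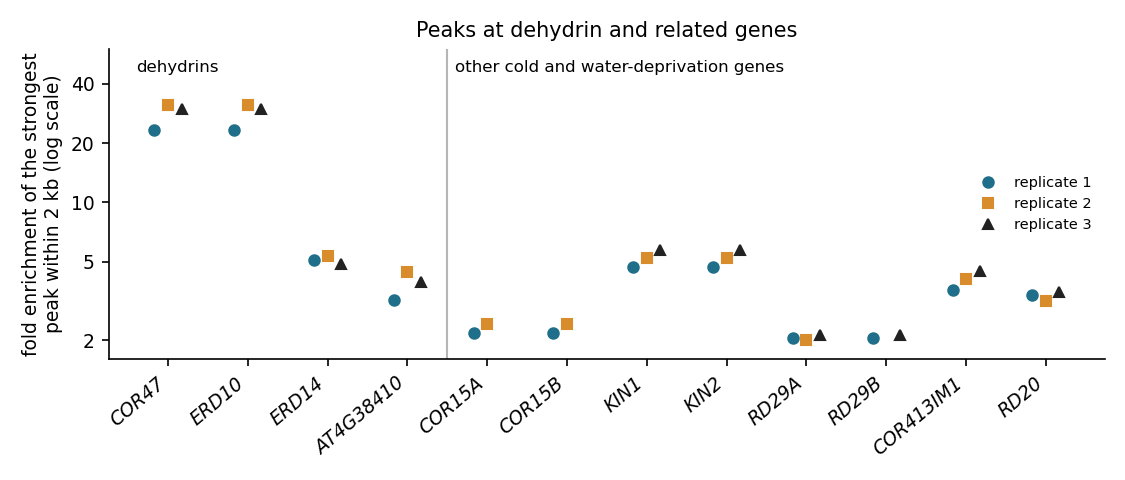
Fold enrichment (log scale) of the strongest peak over each gene or within 2 kb of it, for those of the 20 listed genes that had a peak in any replicate, with 1 symbol per replicate. *COR47* and *ERD10* share the same peaks between 23.4 and 31.1, and the peaks at the other genes do not exceed 5.73.

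Among 10 other genes known for induction by cold or water deficit, 5 had a peak in all 3 replicates, 3 had peaks in some replicates and 2 (*COR413-PM1* and *RD22*) in none. The share of all protein-coding genes was 10.6%, as above, and with 10 genes nothing was read from the difference. Since *KIN1* and *KIN2* share their peaks, the 5 genes correspond to 4 places. These adjacent genes for small cold-induced proteins had peaks of 4.72, 5.21 and 5.73 fold with a mean of 5.22 ± 0.504 (SD, n = 3). *COR413IM1*, which encodes a protein of the inner chloroplast envelope, had 3.61, 4.08 and 4.51 fold, and *RD20*, which encodes a calcium-binding protein of lipid droplets, had 3.38, 3.14 and 3.53 fold. In these 4 genes the peaks of the replicates overlapped. At *RD29A* the values were 2.04, 2.00 and 2.11 fold, but the summits were spread over 2332 bp and the peaks did not fall in a common region. *COR15A* and *COR15B*, neighbouring genes for chloroplast proteins that protect membranes in the cold, shared peaks of 2.17 and 2.40 fold in replicates 1 and 2 and had none in replicate 3. *RD29B* had peaks of 2.04 and 2.11 fold in replicates 1 and 3 only, and these are the same peaks as those given for *RD29A*. The highest of these values, 5.73 in replicate 3, compares with 30.0 at the *COR47* locus in the same replicate. Because the locus was chosen by its fold enrichment, this comparison is a description only.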

How the data were processed

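The peak lists of the 3 ChIP samples were used, and the 1 input library entered through the peak calling alone. The authors trimmed reads with Skewer, dropped those under 50 bp, kept uniquely mapped reads from Bowtie (TAIR10 in the submitters' processing notes) without duplicates, and ran MACS on each sample against the input at a *P* limit of 0.001, with no pooling. Versions are not given in the sources used here. The deposited pileup is a signal, in fragments at the summit. The deposited fold enrichment is a ratio to the local background, and the deposited −log10 values are those of *P* and *q* from MACS. Fold enrichment, *P* and *q* thus rest on the same input in all lists. Read totals are unknown, so no counting interval was computed. A place without a peak can have enrichment just under the limit.

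Peaks that overlapped by at least 1 bp were merged into regions, and a common region holds a peak of every replicate. The strongest peak by fold enrichment stood for each replicate. Target genes were joined by peak name through the 1389 lines of the study's table that were used here, and 1240 lines were left out, so counts of listed genes can be too low. Ranks, widths, arms and edges were computed from the lists, with means and SD over 3 replicates and no test. Genes from the RefSeq table of TAIR10.1 were joined to peaks over the gene or within 2000 bp of it. The locus, the gene lists and the comparisons were chosen with earlier results of these data known. Genes named were the 3 listed genes, the genes between them or beside them, the dehydrin and cold or water-deficit lists, and the genes listed for the 3 regions above and below the locus in mean fold enrichment. *AT1G56320*, *AT2G36290*, *AT2G36300* and *FACE2* were named after their values were seen. Promoter sequences and motifs, the strand of genes and peaks by upstream side were not analysed here. Merging and the gene join were tested on simulated data. Python 3.11.15, pandas 2.3.3, NumPy 2.4.6 and matplotlib 3.10.9 were used.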

Additional observations from a re-analysis of the deposited data

How the results depend on the processing

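Among 36 alternative values, 26 were close to the reported ones (counts within a factor of 1.5, other values within 1 SD) and 10 were not. With 3 replicates, a mean with 1 left out always lies within 1 SD of the full mean, so those values could not fail. The wide peak also lies far beyond the limits on *q* value and fold enrichment, so the count of listed genes could not change under them. The number of close values is therefore no measure of robustness. The comparison of summit places within wide regions, limits on the width of regions, the join by annotation and the limit on the distance of summits were added after the data were seen. The mean rank of the wide peak by fold enrichment, 5.67, became 9.33 by pileup, 7.33 by −log10 *q* value and 7.33 by width. The 5 peaks of the stretch became 3 with a *q* value under 1e-05 and 3 with a fold enrichment of at least 3, since the weak peaks drop out, and 4 with a *q* value under 0.01. The spread of the summits ran from 10 to 33 bp with each replicate left out in turn and was 10 bp without replicate 3. The 3 listed genes that share the wide peak became 1 when the summit had to lie within 2000 bp of the gene. That limit is not the study's rule, which asked for a peak region upstream, so it does not test the study's listing. The number of dehydrin genes with peaks of all 3 replicates was 2 by the lines of the table of targets used here, which can be too low, and 4 by the annotation, also 4 with a *q* value under 1e-05 and 4 with a fold enrichment of at least 3. With each replicate left out, the mean fold enrichment ran from 26.7 to 30.5, the pileup from 456 to 508 fragments and the width from 6734 to 7025 bp. Counts of genes by the upstream side only were not run, since strand was not given in the table used here. The depth of the libraries is unknown, and sub-peaks inside the wide peak and enrichment under the authors' limit cannot be assessed.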

Other observations

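None of the 4 genes of the locus occurs on the study's list of genes with AtbZIP17-dependent heat induction in flowers, which holds 4.80% of the protein-coding genes. With lists of 4 and 10 genes, nothing was read from these counts. Among the 10 dehydrin genes, *RAB18*, a dehydrin induced by abscisic acid, is on that list and had no peak within 2000 bp in any of the 3 ChIP samples. Among the 10 other genes known for induction by cold or water deficit, *RD29B* is on it. It had peaks in replicates 1 and 3 alone, with fold enrichments of 2.04 and 2.11. Both peaks are shared with *RD29A*, which is not on that list. That list was made from flowers and the peaks from seedlings, so the tissue differs between them, and their relation was not tested.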
